A study of Mus musculus with 4 samples.

Results

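The 9 genes described here encode chemokines of the epidermis and its surroundings: Cxcl10, Ccl20, Cxcl1, Cxcl2, Cxcl14, Cxcl16, Ccl2, Ccl7 and Cxcl12. They are 9 of the 18193 genes that the array names by 1 symbol. They were picked from measured differences in these same arrays, between genotypes within each sample number and between numbers within each genotype, so their values are given as a description. The fit across all genes includes them, but its calls on them are only counted beside those on all genes, and nothing is read from them. Together they have 15 probe sets: 5 genes have 1, 2 genes have 2 and 2 genes have 3. A gene is given by its brightest probe set, and the others are given beside it. In all, 12 of the 15 probe sets passed the filter on low signal, a geometric mean over the arrays of 65.9. Of the 9 genes, 8 entered that fit. Ccl7 missed the filter narrowly, at a geometric mean signal of 65.7.

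The study asked what loss of serum response factor, a transcription factor of cytoskeletal and immediate early genes encoded by Srf, does in the differentiating epidermis of the mouse embryo. Basal epidermal cells of embryos at E16.5 were sorted by flow cytometry on α6 integrin, an adhesion receptor of basal keratinocytes, and on a YFP reporter. In 2 samples, called cKO, both Srf alleles were floxed. In the other 2, called het, 1 allele was floxed, and the submitters' design text names them wild type. All of these embryos carried K14-Cre, a recombinase driven in keratinocytes by a keratin promoter, and ROSA26 YFP on both alleles; the strain label of the het samples reads only Rosa26. The titles hold a number that recurs in both groups, so there is a cKO array and a het array for each: KO_1261 and het_1261, called N1261 here, and Ko_1210 and het_1210, called N1210 (the plots write the numbers alone). No label says what the numbers mark, or whether a sample is an embryo or a pool. Any p-value therefore speaks only of these samples, whose spread may be in part technical. The fits also pool spread over many probe sets, so a gene's own arrays do not set its p-value alone. With genotype and number both fitted, limma had 1 residual degree of freedom per gene, beside 34.4 prior ones gained by pooling.

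Chemokines are small secreted proteins that guide leukocytes along a gradient to cells with the matching receptor. Keratinocytes make some of them constantly and others only after injury, infection or inflammatory cytokines, when NF-kB, AP-1 and interferon-activated factors switch the genes on. Several of the inducible transcripts are short-lived, because proteins that bind AU-rich elements mark them for decay. Stromal cells of the dermis are a further source of chemokines in skin.

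The labels were checked first. Srf had signals of 80.4 and 47.9 in cKO arrays N1261 and N1210, against 1108 and 833.9 in het arrays N1261 and N1210. Krt5 and Krt14, keratins of basal cells, were at 35313 to 53068 in cKO and at 35520 to 59598 in het. The poly-A spike-ins, added before labelling, were lower in N1261 than in N1210, where they were 2.56-fold higher in cKO and 2.41-fold higher in het. The hybridization spike-ins were higher in N1210 as well, 1.73-fold in cKO and 1.99-fold in het. Xist, expressed from the inactive X chromosome, was at 22802 and 115.4 in cKO arrays N1261 and N1210, against 14338 and 62.6 in het arrays N1261 and N1210. Eif2s3y, a gene of the Y chromosome, was at 3.01 and 1386 in the same cKO arrays, against 833.9 and 1485 in the same het arrays. The numbers thus stand apart in controls and in sex-linked genes. The main fit of the genotypes had no term for them, and a fit with the number as a second term is an alternative. Eif2s3y also differed between the genotypes within N1261 (-7.70 on the log2 scale), where the het array had signal for both Xist and Eif2s3y. What part these differences have in the results was not tested.

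Stretches before the transcript start, from RefSeq on build GRCm38.p6, are printed for 4 of the members, Cxcl10, Ccl20, Cxcl1 and Cxcl2. Each runs over the 250 bases up to the base before the start, 5′ to 3′ in the sense of the gene. Capitals mark matches to the searched motifs.
Cxcl10 promoter, chr5:92348890-92349139, minus strand: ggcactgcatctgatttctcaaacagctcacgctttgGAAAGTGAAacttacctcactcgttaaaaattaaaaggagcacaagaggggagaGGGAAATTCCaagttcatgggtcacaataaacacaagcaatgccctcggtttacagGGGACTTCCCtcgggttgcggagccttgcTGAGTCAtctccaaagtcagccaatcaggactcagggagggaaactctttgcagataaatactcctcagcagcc
Ccl20 promoter, chr1:83116516-83116765, plus strand: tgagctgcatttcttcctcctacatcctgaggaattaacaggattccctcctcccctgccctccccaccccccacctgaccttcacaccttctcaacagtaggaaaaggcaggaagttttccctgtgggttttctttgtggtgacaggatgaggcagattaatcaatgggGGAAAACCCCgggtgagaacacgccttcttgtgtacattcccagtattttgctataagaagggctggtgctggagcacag
Cxcl1 promoter, chr5:90890995-90891244, plus strand: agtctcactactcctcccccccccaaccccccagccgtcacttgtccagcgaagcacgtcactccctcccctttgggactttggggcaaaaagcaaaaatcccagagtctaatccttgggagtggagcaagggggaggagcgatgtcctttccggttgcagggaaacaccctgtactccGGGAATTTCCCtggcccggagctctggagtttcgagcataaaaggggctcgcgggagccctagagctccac
Cxcl2 promoter, chr5:90903649-90903898, plus strand: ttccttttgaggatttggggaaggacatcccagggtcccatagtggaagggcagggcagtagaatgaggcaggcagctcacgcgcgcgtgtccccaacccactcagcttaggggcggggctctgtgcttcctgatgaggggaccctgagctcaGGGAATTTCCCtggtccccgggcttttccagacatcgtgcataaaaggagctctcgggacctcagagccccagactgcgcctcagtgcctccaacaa
The search covered 250 bases before and 50 bases after the start, on both strands, in 6 of the 9 genes. Cxcl16, Ccl2 and Ccl7 were not searched, since the promoter set used held no entry for them. The NF-kB consensus was present in 4 of the 6, namely the 4 printed, and in 4.505% of all 32851 promoters of that length. In Cxcl10 it lies at bases -159 to -150 and -103 to -94, counted back from the base before the start. In Ccl20 it lies on the minus strand at -80 to -71. Cxcl1 and Cxcl2 hold a run that matches on both strands with an offset of 1 base, at -71 to -61 in Cxcl1 and at -97 to -87 in Cxcl2, so the matches overlap. The AP-1 site TGANTCA was in the Cxcl10 promoter alone among the 6, at -74 to -68, and in 7.808% of all promoters. The interferon-stimulated response element core GAAANNGAA was in Cxcl10 at -213 to -205 and in Cxcl14 at -172 to -164, and in 8.56% of all promoters. The CArG box, the site of serum response factor, was in 0 of the 6 and in 1.629% of all promoters. A match is a description of letters and no evidence of binding, and the lack of one concerns this window only.

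Cxcl10, an interferon-inducible ligand of Cxcr3 on T cells, had signals of 10210 and 1600 in cKO arrays N1261 and N1210, against 4736 and 468.4 in het arrays N1261 and N1210. The cKO array was the brighter one within both numbers, but the numbers lie so far apart that the groups overlap: het N1261 exceeded cKO N1210. The difference in log2(signal + 1), cKO minus het, was 1.11 within N1261 and 1.77 within N1210, or 2.16-fold and 3.41-fold. The group means were 5905 ± 6088 in cKO and 2602 ± 3018 in het (SD, n = 2 each), and both SDs reflect the distance between the numbers.

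Ccl20, the ligand of Ccr6 that draws dendritic cells and T cells to epithelia, had signals of 548.7 and 166.3 in cKO arrays N1261 and N1210, against 217.8 and 21.6 in het arrays N1261 and N1210. It was higher in cKO within both numbers, by 1.33 (2.51-fold) within N1261 and by 2.89 (7.39-fold) within N1210. The het N1210 value lies below that array's median signal of 69.3, where MAS5 signals are noisy on a log scale, so the size of the difference in N1210 is imprecise. The means were 357.5 ± 270.4 in cKO and 119.7 ± 138.7 in het (SD, n = 2 each).

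Cxcl1, a ligand of Cxcr2 that attracts neutrophils, was at 11053 and 4024 in cKO arrays N1261 and N1210, against 7864 and 2771 in het arrays N1261 and N1210. The cKO minus het difference was small and alike within the numbers, at 0.49 in N1261 and 0.54 in N1210. A different probe set gave 9374 and 2932 in cKO and 6085 and 1837 in het, in the same order of arrays, with differences of 0.62 and 0.67. The probe set with the suffix _x_at, of a design that can pick up related sequences, departed from both. It read 1670 and 689.1 in cKO arrays N1261 and N1210, against 1070 and 937.9 in het arrays N1261 and N1210, so its difference was 0.64 within N1261 and -0.44 within N1210. The direction in N1210 thus rests on which probe set is read.

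Cxcl2, the close relative of Cxcl1 and another ligand of Cxcr2, had a different pattern. Its signals were 1272 and 343.1 in cKO arrays N1261 and N1210, against 821.5 and 732.4 in het arrays N1261 and N1210. It was higher in cKO within N1261, by 0.63, and lower within N1210, by a difference of -1.09. The cKO values lie on either side of the het pair, which differ little from each other. Cxcl1 and Cxcl2 are near neighbours on chromosome 5, where Cxcl10 lies as well.

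**Figure D1:**
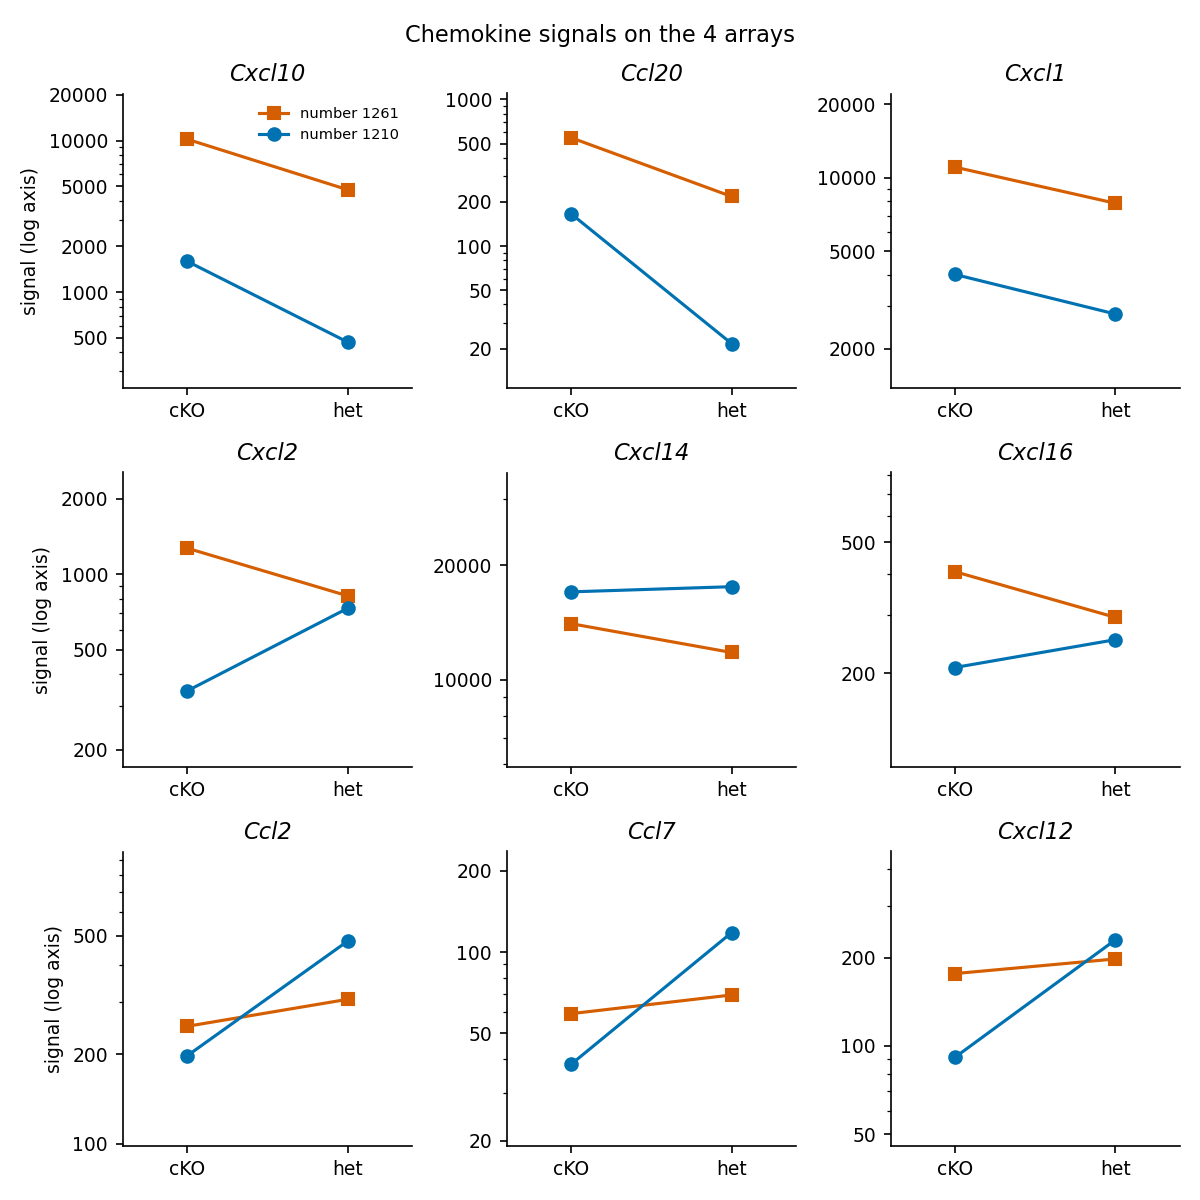
Signals of the 9 chemokines on a log axis, cKO left and het right in each panel, with a square and line for N1261 and a circle and line for N1210; each point is 1 array. Cxcl10, Ccl20 and Cxcl1 run higher in cKO along both lines, at a great distance between the lines, while Ccl2, Ccl7 and Cxcl12 run lower in cKO along both.

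Cxcl14, a chemokine that epithelial cells make constantly, differed little. It was at 14048 and 17035 in cKO arrays N1261 and N1210, against 11792 and 17579 in het arrays N1261 and N1210, with differences of 0.25 within N1261 and -0.05 within N1210. The other probe set gave differences of -0.02 and -0.07. Cxcl16, made as a membrane protein that is shed by proteases and read by Cxcr6, was at 407.1 and 208.3 in cKO arrays N1261 and N1210, against 295.7 and 253.1 in het arrays N1261 and N1210. Its difference was 0.46 within N1261 and -0.28 within N1210, and its other probe set gave 0.25 and -0.14. Signs therefore disagreed between the numbers for Cxcl16 in both probe sets.

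Ccl2, a ligand of Ccr2 that recruits monocytes, was at 248.0 and 197.3 in cKO arrays N1261 and N1210, against 305.6 and 479.0 in het arrays N1261 and N1210. Both cKO arrays lie below both het arrays, with a difference of -0.30 within N1261 and a larger one, -1.28, within N1210. The means were 222.7 ± 35.9 in cKO and 392.3 ± 122.6 in het (SD, n = 2 each). Ccl7, a neighbour of Ccl2 on chromosome 11 that also signals through Ccr2, was at 59.1 and 38.3 in cKO arrays N1261 and N1210, against 69.4 and 118.1 in het arrays N1261 and N1210. Its differences were -0.23 within N1261 and -1.60 within N1210. Save for het N1210, its signals lie below their arrays' median signals of 75.5 (cKO N1261), 63.7 (cKO N1210) and 82.5 (het N1261). The sizes of the Ccl7 differences are therefore imprecise.

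Cxcl12, the ligand of Cxcr4 and of the scavenger receptor Ackr3, was at 176.6 and 91.4 in cKO arrays N1261 and N1210, against 198.1 and 230.2 in het arrays N1261 and N1210. The difference was -0.16 within N1261 and -1.32 within N1210. A dimmer probe set below the filter followed it, with -0.08 and -1.05. The dimmest one did not: it read 40.5 and 12.6 in cKO, against 13.2 and 4.90 in het, in the same order of arrays, with differences of 1.54 and 1.20. At such signals the values lie near background.

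Cxcl10, Ccl20 and Cxcl1 were higher in cKO within both numbers, Ccl2, Ccl7 and Cxcl12 were lower within both, and Cxcl2, Cxcl14 and Cxcl16 had opposite signs. Among the 8 tested, 3 were higher within both numbers and 2 were lower within both, while of all 11055 genes tested 24.4% were higher and 31.6% were lower within both. Both cKO arrays lay below both het arrays for 2 of the 8, and for 10.9% of all genes; for 0 of the 8, and for 8.17% of all genes, both lay above. Cxcl10 and Ccl20 exceeded a 2-fold higher level in cKO within both numbers, as did 4 of 11055 genes (0.0362%). The others are Krt6b, a keratin of stressed epidermis (906.4 and 141.6 in cKO arrays N1261 and N1210, against 21.3 and 48.2 in het arrays N1261 and N1210), and Fmod, a matrix proteoglycan (455.4 and 412.5, against 219.3 and 141.3). Both Krt6b het signals lie below the median signals of their arrays, 82.5 and 69.3. Fmod was read from a probe set with the suffix _x_at. Krt6b and Fmod were named after their values were seen. More than 2-fold lower within N1210 were Cxcl2, Ccl2 and Cxcl12, 3 of 8, against 2.91% of genes. The share in each case is the background, and the members were picked on these contrasts.

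In limma with no second term, 0 of 11055 genes and 0 members were called at an adjusted p under 0.05, a share of 0%, while 66 genes passed 0.05 before adjustment. Once the number was a second term, 97 genes were called, 28 higher and 69 lower in cKO, or 0.877%, and they held 2 members, Cxcl10 and Ccl20, which were picked on this contrast. These 97 calls rest on a variance shared across probe sets, and 0 genes were called once the prior variance was not tied to the signal. The difference between the numbers in their cKO minus het values has no residual degree of freedom here and could not be tested.

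**Figure D2:**
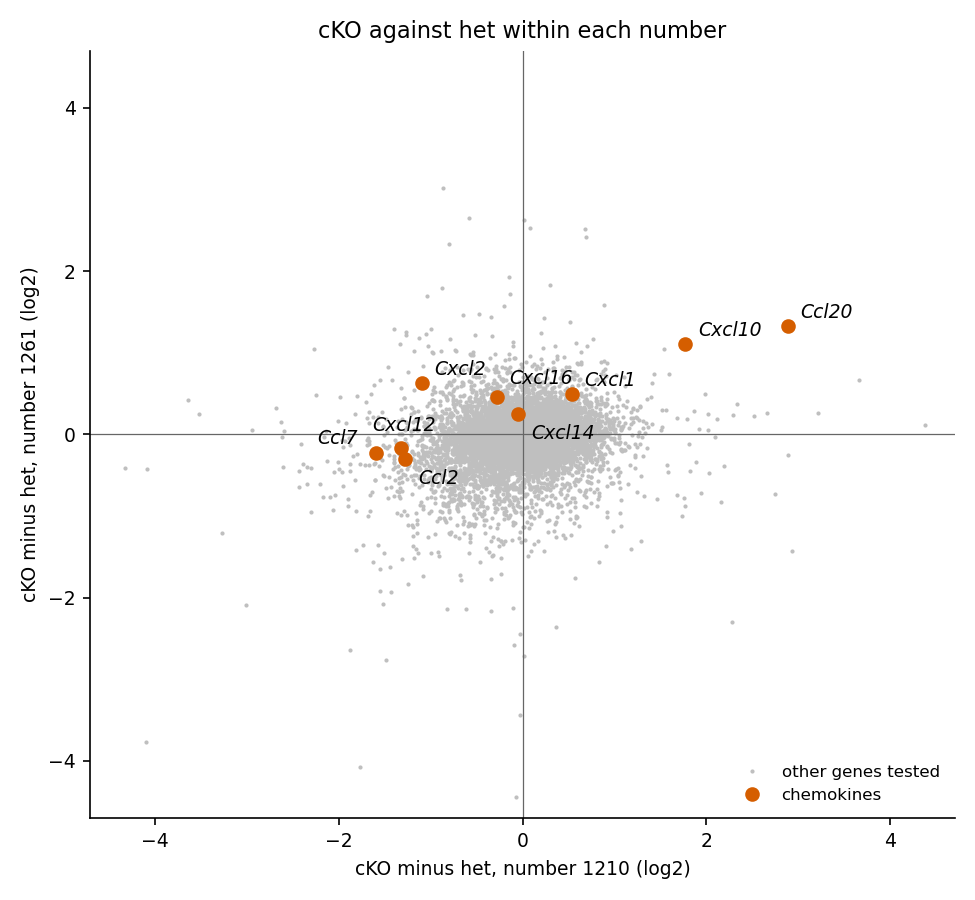
Log2 difference cKO minus het within N1210 (x) and within N1261 (y), with chemokines as large points and the other tested genes as small grey points; axes end at 4.7, beyond which 3 genes lie. Ccl20 (2.89 and 1.33, x and y) and Cxcl10 (1.77 and 1.11) lie in the upper right, and Ccl2, Ccl7 and Cxcl12 lie left of zero and just under it.

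On average over the arrays, Cxcl10 and Cxcl1 differed more between the numbers than between the genotypes. For Ccl20 the averages were close, at 2.49 and 2.11, and nearly equal after quantile normalization (2.29 and 2.28). Cxcl10 was higher in N1261 than in N1210 by 2.67 (6.38-fold) in cKO and by 3.34 (10.1-fold) in het. Ccl20 was higher by 1.72 (3.28-fold) in cKO and by 3.27 (9.67-fold) in het, the larger value again against a dim het N1210 array. Cxcl1 was higher by 1.46 in cKO and by 1.505 in het, and its second probe set by 1.68 and 1.73. Cxcl2 was higher by 1.89 in cKO but by 0.17 in het, and Cxcl16 by 0.96 in cKO and 0.22 in het. Cxcl14 was lower in N1261, by a difference of -0.28 in cKO and -0.58 in het, and Ccl2, Ccl7 and Cxcl12 had opposite signs: 0.33, 0.61 and 0.94 in cKO, against -0.65, -0.76 and -0.22 in het.

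Both N1261 arrays lay above both N1210 arrays for 5 of the 8 tested members, and for 25.5% of all genes; for 1 of 8, and for 41.5% of genes, both lay below. More than 2-fold higher in N1261 within both genotypes were Cxcl10, Ccl20 and Cxcl1, 3 of 8, and 2.22% of genes. With the number as the only term, limma called 2285 genes (20.7%), 879 higher and 1406 lower in N1261, among them Cxcl10, Cxcl1 and Cxcl14. With genotype as a second term it called 3533 (32%), and the 5 members were those 3 with Ccl20 and Cxcl2.

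**Figure D3:**
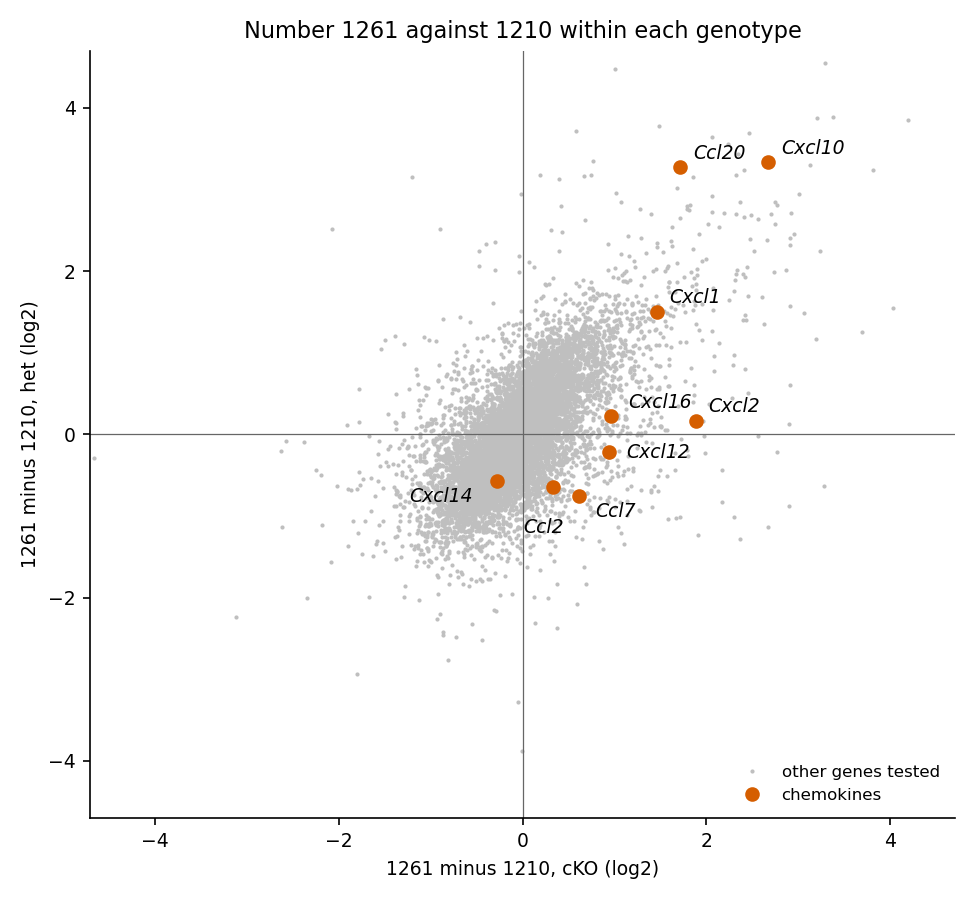
Log2 difference N1261 minus N1210 in cKO (x) and in het (y), with chemokines as large points and the other tested genes as small grey points; axes end at 4.7, beyond which 7 genes lie. Cxcl10 stands at 2.67 and 3.34 and Ccl20 at 1.72 and 3.27, both far to the upper right.

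Genes were ranked by likeness of profile over the 4 arrays, as the root mean square distance in log2 units after each profile was centred. The arrays share the numbers and the genotypes, so genes that differ between numbers resemble each other. Nearest to Cxcl10 were Gm20199 (0.19), 2310034C09Rik (0.30) and Pde4b (0.32), with 1 gene within 0.25. Nearest to Ccl20 were Zfp36 (0.42), Cxcl10 (0.48) and Gm20199 (0.52), with 0 genes within 0.25. The distance grows with the size of a gene's differences, so these counts restate that size: genes with large differences have few others within 0.25, and flat ones have many. Cxcl1 had 123 genes within 0.25, Birc3 nearest (0.04), then Zbed6 (0.06) and Zfp131 (0.07). Cxcl2 had 25, with Dhrsx (0.07), Cnnm4 (0.14) and Krt16 (0.14), a keratin of stressed epidermis, in front. The flat profile of Cxcl14 had 4774 genes within 0.25, with Ddx56, Rnf185 and Rpp14 (0.02 each) nearest. Cxcl16 had 685, led by Ptar1 (0.04), Ube2w (0.05) and Six4 (0.05). Ccl2 had 305, led by 0610009L18Rik (0.03), Il20rb (0.04) and Vim (0.04), the intermediate filament of mesenchymal cells. Cxcl12 had 138, led by Dtd2 (0.08), Cpe (0.09) and Cd302 (0.09), and lay at 0.27 from Ccl2.

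Dermal fibroblasts are a known source of Ccl2, Ccl7 and Cxcl12, and the sort on α6 integrin and on K14-Cre-driven YFP would select against them. Of 12 of their markers, 8 were lower and 2, Pdgfra and Thy1, were higher in cKO within both numbers. Of all genes tested, 31.6% were lower and 24.4% were higher within both. The summed signal of the 12 markers was 41490 and 40667 in cKO arrays N1261 and N1210, against 44294 and 52928 in het arrays N1261 and N1210. The median difference of these markers was -0.21 within N1261 and -0.92 within N1210, beside -0.02 and -0.03 for all genes. With the number as a second term in limma 3 of the 12 fell: Col3a1, a fibrillar collagen (6520 and 5335 in cKO, against 7811 and 10543 in het, N1261 before N1210; adjusted p = 0.0301), Vim (3564 and 2924, against 4156 and 6708; adjusted p = 0.0249), and Twist2, a mesenchymal transcription factor (193.1 and 94.0, against 265.4 and 369.0; adjusted p = 0.0451). The same fit called 0.877% of all genes. With a robust prior all 3 calls were lost (adjusted p = 0.106, 0.301 and 0.142, in that order). Dpt was lower within both numbers (-0.82 and -0.77) while Pdgfra (0.87 and 0.64) and Thy1 (0.40 and 0.46) were higher, all uncalled. Dcn, the brightest, was level at 18828 and 21841 in cKO, against 19073 and 19907 in het.

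Of 11 immune markers, 5 were lower and 1 was higher in cKO within both numbers, beside 31.6% and 24.4% of all genes tested. The other 5 had mixed signs. The summed signal of the 11 was 773.9 and 473.1 in cKO arrays N1261 and N1210, against 997.5 and 938.7 in het arrays N1261 and N1210. Laptm5, a lysosomal protein of leukocytes, fell in cKO with the number as a second term (adjusted p = 0.0367, and 0.0682 with a robust prior), and 8 of the 11 markers lay below the filter, among them Ptprc, the pan-leukocyte antigen (25.3 and 23.5 in cKO, against 24.6 and 35.7 in het), and Cd207 of Langerhans cells (2.59 and 5.11, against 5.87 and 7.54). Endothelial markers summed to 805.9 and 664.4 in cKO, against 853.9 and 1143 in het, and melanocyte markers to 706.6 and 722.7, against 726.3 and 1314. Periderm markers, of the outer sheet of the embryonic epidermis, summed to 16671 and 17607, against 18419 and 29977. Most of that signal was Krt17 (8048.5 and 11473 in cKO, against 8581 and 22346 in het) and Sfn (7245 and 5125, against 8520 and 6427). Krt8, a dim marker more than 1.5-fold lower in cKO within both numbers, read 91.4 and 122.1, against 187.4 and 229.0. Of the 7 periderm markers 5 were lower and 0 were higher within both numbers, beside 31.6% and 24.4% of all genes tested. Basal keratinocyte markers summed to 154404 and 202147 in cKO arrays N1261 and N1210, against 159783 and 214738 in het arrays N1261 and N1210. In these sorted bulk samples fewer cells of a type and less RNA per cell cannot be told apart, and the part of these markers in the chemokine values was not tested.

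**Figure D4:**
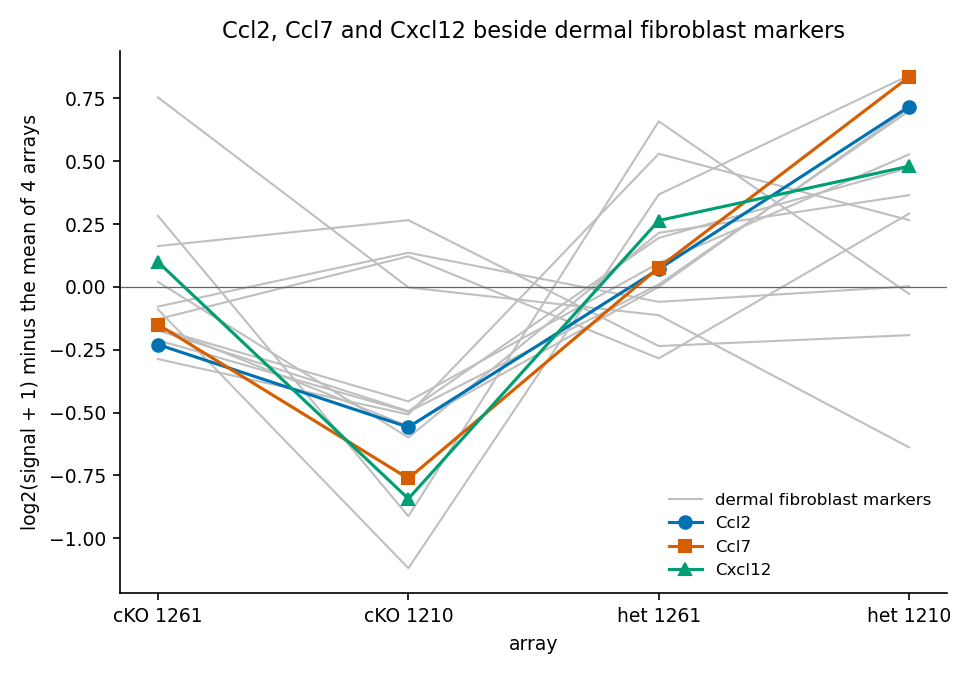
Log2(signal + 1) of Ccl2, Ccl7 and Cxcl12 (coloured) and of the 12 dermal fibroblast markers (grey), each less its mean over the 4 arrays, cKO arrays left and het arrays right. The 3 chemokines are lowest in cKO N1210 and highest in het N1210.

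Of 29 other chemokines listed, 26 were on the array and 19 of these lay below the filter. Of the 7 tested, 0 were called in either fit of cKO against het, beside 0% and 0.877% of all genes. With shares this low, 0 calls in a short list carry little weight. Cx3cl1, the membrane-bound fractalkine, was at 324.4 and 449.1 in cKO arrays N1261 and N1210, against 369.1 and 338.4 in het arrays N1261 and N1210. Ccl27a, a keratinocyte chemokine for skin-homing T cells, was at 288.6 and 300.3 in cKO, against 320.3 and 450.8 in het. Of the receptors, 8 of 21 passed the filter and 0 were called in either fit. Ackr3 was at 2743 and 4140 in cKO arrays N1261 and N1210, against 2817 and 3054 in het arrays N1261 and N1210, and Cxcr4 at 176.0 and 239.1, against 231.0 and 445.4. Cxcr3, the receptor of Cxcl10, was among those that passed, at 93.4 and 128.4 in cKO, against 134.3 and 65.9 in het. Its differences had opposite signs, -0.52 within N1261 and 0.95 within N1210. Ccr6, Cxcr2 and Ccr2, receptors of Ccl20, of Cxcl1 and Cxcl2, and of Ccl2 and Ccl7, stayed below the filter. Of the cleavage enzymes 5 of 6 passed it and 0 were called; Adam10, which sheds Cxcl16, was at 3833 and 3510 in cKO, against 3769 and 2625 in het, and Adam17 at 769.7 and 585.5, against 739.2 and 550.5.

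All 14 NF-kB subunits and feedback genes on the array passed the filter. With the number as the only term 10 of them were higher in N1261, where 7.95% of all genes were called in that direction, with a median of 0.96 in cKO and 1.47 in het, beside -0.12 and -0.13 for all genes. Icam1, an adhesion molecule, was at 12414 and 2962 in cKO arrays N1261 and N1210, against 8674 and 2507 in het arrays N1261 and N1210 (number in limma, adjusted p = 8.5e-04). Between genotypes the median was 0.23 within N1261 and 0.24 within N1210. With the number as a second term 2 of the 14 were called, beside 0.877% of all genes. Tnfaip3, the A20 deubiquitinase that restrains NF-kB, was at 5436 and 1546 in cKO arrays N1261 and N1210, against 3952 and 587.8 in het arrays N1261 and N1210. It rose in cKO, by 0.46 and 1.39 within N1261 and N1210 (adjusted p = 0.00351, and 0.0489 with a robust prior). Nfkbia, the NF-kB inhibitor, was level within N1261 (0.08) and higher within N1210 (1.31), with an adjusted p of 0.0224 that became 0.868 with a robust prior. Birc3 was higher by 0.55 and 0.46 and was not called.

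Of 8 AP-1 genes, which encode inducible transcription factors, 6 were higher in N1261 with the number as the only term, beside the same 7.95% of all genes. Between genotypes Jun (0.23 within N1261, 2.29 within N1210) and Atf3 (0.25 and 2.02) passed with the number as a second term, at adjusted p = 0.00115 and 0.00127, and both lost it with a robust prior (0.868 and 0.865). Zfp36, which speeds the decay of AU-rich cytokine transcripts, was at 18756 and 6718 in cKO arrays N1261 and N1210, against 16087 and 1176 in het arrays N1261 and N1210. Its differences were 0.22 and 2.51, with adjusted p = 0.00112, and 0.872 with a robust prior. In Jun, Atf3 and Zfp36 het N1210 is the lowest of the 4 arrays, as it is in Tnfaip3 and Nfkbia. Among the members, by their brightest probe sets, this holds for Cxcl10, Ccl20 and Cxcl1 and not for the rest. Of the 8 decay genes 5 were higher and 1 lower in N1261, where 20.7% of all genes were called in either direction.

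Of 20 interferon-response genes listed, 18 were on the array and 7 were tested. Between genotypes 0 were called, beside 0% of all genes without and 0.877% with the number as a second term. The median difference was 0.29 within N1261 and 0.21 within N1210. Irf1, an interferon-induced transcription factor, was at 5416 and 575.7 in cKO arrays N1261 and N1210, against 3875 and 815.6 in het arrays N1261 and N1210, so its difference changed sign between N1261 (0.48) and N1210 (-0.50). Tap1, of antigen processing, was at 354.0 and 396.0 in cKO, against 194.3 and 341.7 in het. In the number contrast Irf1 was higher and Igtp lower in N1261 (limma, adjusted p = 5.2e-04 and 0.0245). That fit called 20.7% of all genes in either direction, so these calls among 7 genes are near that share. Of 10 epithelial cytokines tested 0 were called between genotypes and 4 were higher in N1261 (Tnf, Hbegf, Csf1 and Il23a), beside 7.95% of all genes. Of 13 cytokine receptors tested 0 were called between genotypes and 1, Il1rap, was higher in N1261, a share near that of all genes.

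**Figure D5:**
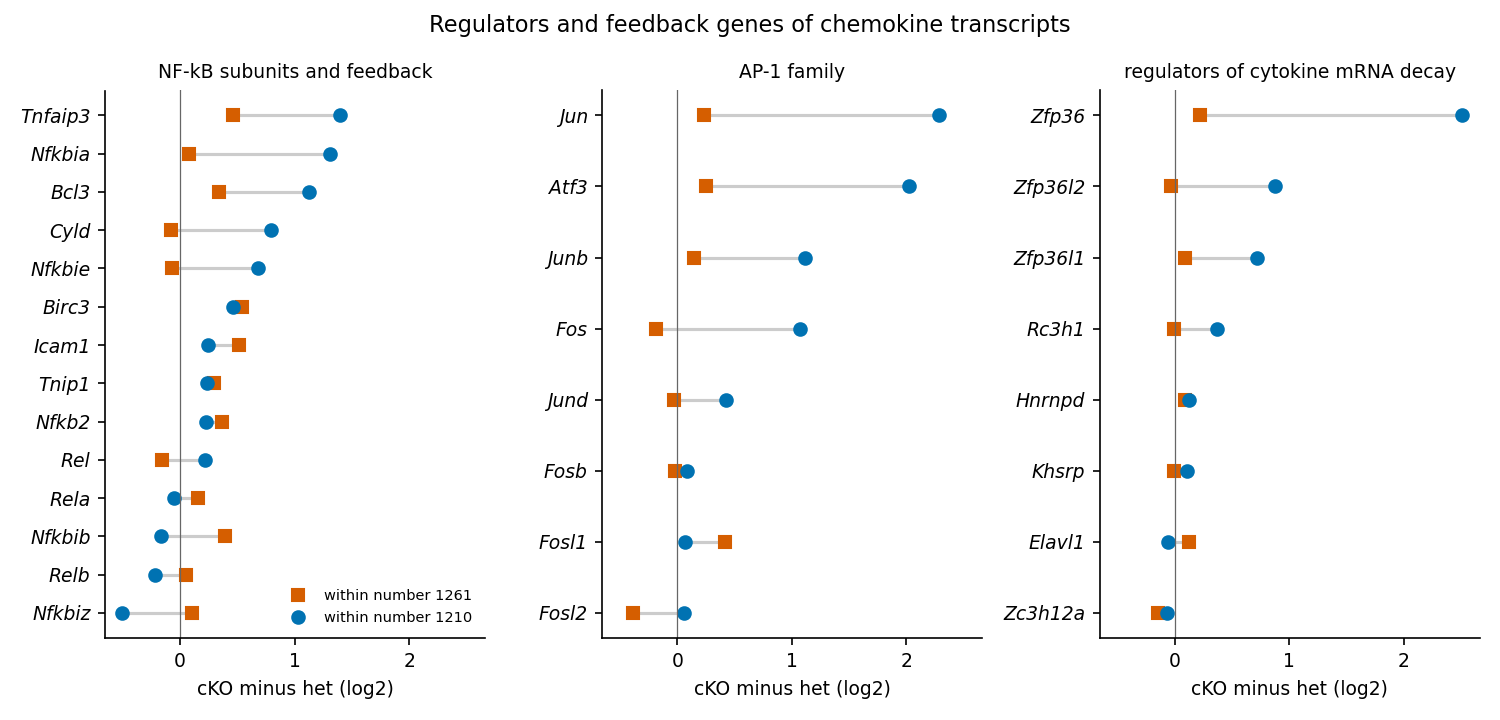
Log2 difference cKO minus het of NF-kB genes, AP-1 genes and regulators of cytokine mRNA decay, within N1261 (squares) and within N1210 (circles), a line joining the pair of each gene. Zfp36, Jun and Atf3 lie above 2 within N1210 and at 0.22 to 0.25 within N1261, and Tnfaip3 lies at 1.39 and 0.46. These genes and some others are higher within both numbers.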

How the data were processed

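Basal epidermal cells of 2 cKO and 2 het samples were measured on 1-colour arrays, RNA by Trizol and biotin labelling by a 3′ kit, per the labels' protocols. The deposited intensity values are MAS5 signals on a linear scale, made by the authors, per the submitters' processing notes; the version and genome build are not given in the sources used here. Signals were turned into log2(signal + 1), which understates differences of dim probe sets. Of 45101 probe sets, 64 controls were left out, and 34945 had 1 gene symbol in the platform annotation (932 several, 9160 none). Probe sets above the median mean log2 signal were tested (11055 genes, brightest probe set each) with limma 3.58.1 in R 4.3.3 (lmFit, eBayes with a variance trend), two-sided, Benjamini-Hochberg adjusted, threshold 0.05, with genotype or number as the only term. Fits with both terms, other scalings, filters and pseudocounts, and arrays left out, are alternatives. The scripts were tested on simulated data, where the fit with no second term had little power to call changes. The simulated data carried the number differences of these arrays, so that low power follows in part from the setting. In the text, rose and fell are used of genes called with the number as a second term. The members and lists were chosen with earlier results of these data known. Named besides the members are listed genes called with the block or over 1.5-fold within both numbers, and the 3 most like each member. The 2 brightest were named for some lists only. A few others were named for their values or their receptor role. Precision is limited by having 2 arrays a group. Promoters came from RefSeq (GRCm38.p6), and figures from matplotlib 3.10.9.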

Additional observations from a re-analysis of the deposited data

Results flagged for a closer look

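For 3 chemokines the cKO array was above the het array in 1 number and below it in the other. The cKO minus het difference in N1261, less that in N1210, was 1.722 for Cxcl2, 0.2978 for Cxcl14 and 0.7396 for Cxcl16 on the log2 scale. For 3 others the number had opposite signs in the genotypes: the N1261 minus N1210 difference in cKO, less that in het, was 0.9752 for Ccl2, 1.371 for Ccl7 and 1.158 for Cxcl12. With 1 array per genotype and number, none of these differences was tested.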

How the results depend on the processing

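Same-numbered arrays deviated from their group means together (correlation 0.7552 across probe sets), but the labels do not tie them to shared animals, and there are only 2 numbers. With the replicate block, calls of cKO against het moved to 97 genes, 9 listed genes and 2 members, against 0 of each without it. Block and a robust prior gave 50, 1 and 2. Settings with the block were also added after the data were seen: with median centring 52, 5 and 3 (30 genes higher and 22 lower, against 28 and 69), with quantile normalization 155, 16 and 3, and with log2(signal + 16) 48, 2 and 2; a further one, without the variance trend, gave 0 of each. Leaving out 1 array gave 0 to 2 genes and 0 members. For the number the calls were 2285 genes, 35 listed genes and 3 members: 3533 genes and 5 members with the genotype term (replicate block), 3488 genes with a robust prior besides, 427, 11 and 1 without the variance trend, 1450 genes with no filter, and 771 to 4640, 25 to 53 and 3 to 5 with 1 array left out. With the genotype term and settings added later, no trend gave 612 genes and 20 listed genes, median centring 4798 genes (754 higher, 4044 lower) and 5 members, quantile normalization 4135 genes, and log2(signal + 16) 5 members. Median centring without that term gave 369 higher and 2920 lower, against 879 and 1406. It moved the median of all genes from -0.02 to 0.10 for the genotype and from -0.13 to -0.38 for the number. Leaving out 1 array unbalances the numbers: the mean cKO minus het difference of Cxcl10 then ran from -0.23 to 3.11, below 0 without het N1210, that of Ccl20 from 0.47 to 3.74, and that of Cxcl1 from -0.24 (without het N1210) and -0.21 (without cKO N1261) to 1.27. Ccl2 (-1.11 to -0.46) and Cxcl12 (-1.21 to -0.27) stayed below 0, while Cxcl2 (-1.17 to 0.71), Cxcl14 (-0.18 to 0.39) and Cxcl16 (-0.39 to 0.57) changed sign. In the settings that kept all arrays, Cxcl14 alone changed sign, to -0.04 with its second probe set. The causes were not tested. With the block and 1 array left out no residual degree of freedom remained, and no value was computed.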

Other observations

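Tslp, an epithelial cytokine of allergic inflammation that lay below the filter, had signals of 322.2 and 13.5 in cKO arrays N1261 and N1210, against 139.1 and 5.11 in het arrays N1261 and N1210. Cxcl11, an interferon-inducible relative of Cxcl10, was at 221.6 and 58.4 in cKO arrays N1261 and N1210, against 43.1 and 102.4 in het arrays N1261 and N1210, with differences of 2.34 within N1261 and -0.80 within N1210, and was not called. Both were named after their values were seen.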
